A study of Mus musculus with 12 samples.

Results

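The genes described here are 10 genes of the unfolded protein response of the endoplasmic reticulum (ER): *Atf6*, *Ern1*, *Ern2*, *Xbp1*, *Hspa5*, *Hsp90b1*, *Pdia4*, *Dnajb9*, *Sdf2l1* and *Herpud1*. They were chosen by name, with no measured value in the rule, and each matched 1 of the 54532 rows of the table. All 10 passed the filter on low values that left 12740 genes for testing. They were measured in colonoids, epithelial organoids grown from the colon of mice of 8 to 12 weeks and kept in L-WRN conditioned medium. Control colonoids carried floxed *Hmox1* alleles (*Hmox1* fl/fl). Those labelled KO were to lack *Hmox1* in the epithelium through a Cre driven by *Vil1*, the villin gene of intestinal epithelial cells, and the labels of replicate 3 with hemin write this genotype as fl/fl with Vil1 Cre. Each genotype was given vehicle or hemin, the chloride of oxidized heme, at 200 µM for 24 hours, and 3 libraries of poly-A RNA were sequenced in each of the 4 groups. The labels do not say whether the 3 libraries came from separate mice or cultures, and name no Cre in the controls. The p-values therefore measure the spread between these libraries, which may be technical.

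The unfolded protein response adjusts the folding capacity of the ER to the proteins that enter it. ATF6, the IRE1 proteins encoded by *Ern1* and *Ern2*, and PERK sit in the ER membrane and are held inactive in part by the chaperone BiP, the product of *Hspa5*. Active IRE1 splices the mRNA of *Xbp1*, and the transcription factors XBP1 and cleaved ATF6 raise chaperones, oxidoreductases and the proteins that pull misfolded proteins out of the ER for degradation. *Ern2* is largely restricted to mucus-producing epithelium of the gut and airway, where secretory goblet cells fold large amounts of mucin. Expression of whole genes, as measured here, cannot show *Xbp1* splicing, ATF6 cleavage or phosphorylation of the sensors.

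Since ATF6 and XBP1 act through short promoter elements, the promoters of the 10 genes were searched for them in the RefSeq sequences of GRCm38.p6, from 250 bases before to 50 bases after the start. The set of RefSeq promoters used here held 8 of the 10 genes by name, all but *Atf6* and *Ern2*, which does not mean that RefSeq lacks these 2. The ER stress response element (ERSE; CCAAT, 9 bases of any kind, then CCACG, on either strand) stood in the promoters of *Hspa5* and *Hsp90b1*, against 0.119% of all 32851 promoters. *Hsp90b1* held it at 2 places, 1 on each strand. ERSE-II (ATTGG, 1 base of any kind, then CCACG) stood in that of *Herpud1*, against 0.037% of all promoters. The UPRE (TGACGTGG) was in none of the 8, against 0.676% of all promoters. The opening letters of ERSE-II are those of ERSE read on the other strand, and the UPRE read on the other strand holds CCACG. The 3 promoters with an element are shown up to the base before the RefSeq start, read toward the gene, with the fixed letters of the elements in capitals. Counted from that start, the site in *Hspa5* ran from -65 to -47, the sites in *Hsp90b1* from -212 to -194 and from -107 to -89, and that in *Herpud1* from -52 to -42.
Hspa5 chr2:34771840-34772089 (plus strand): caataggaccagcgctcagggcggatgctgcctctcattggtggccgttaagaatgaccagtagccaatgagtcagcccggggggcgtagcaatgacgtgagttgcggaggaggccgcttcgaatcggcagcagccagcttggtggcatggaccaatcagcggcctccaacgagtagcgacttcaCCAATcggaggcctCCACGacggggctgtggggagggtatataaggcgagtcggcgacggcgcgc
Hsp90b1 chr10:86705445-86705694 (minus strand): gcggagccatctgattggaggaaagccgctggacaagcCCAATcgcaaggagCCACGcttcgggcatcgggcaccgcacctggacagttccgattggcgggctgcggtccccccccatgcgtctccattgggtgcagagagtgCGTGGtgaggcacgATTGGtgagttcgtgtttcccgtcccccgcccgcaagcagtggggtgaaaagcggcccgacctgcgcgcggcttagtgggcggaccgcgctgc
Herpud1 chr8:94386179-94386428 (plus strand): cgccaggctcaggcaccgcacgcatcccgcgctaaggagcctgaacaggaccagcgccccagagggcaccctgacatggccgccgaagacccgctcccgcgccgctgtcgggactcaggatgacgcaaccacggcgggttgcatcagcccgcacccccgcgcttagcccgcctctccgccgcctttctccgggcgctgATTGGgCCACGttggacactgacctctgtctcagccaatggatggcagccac
The RefSeq starts lay 0 to 258 bases from the gene starts in the deposited table. These are matches of letters only, to elements already known for this pathway, so the shares beside them are no test of enrichment. The 3 genes that held an element moved differently under hemin, as described next.

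Depth was 11648801 to 25101868 fragments on genes per library, and the 10 genes held at least 42 fragments in every library, the lowest being for *Ern2*. *Hmox1* itself stood at 2.11 to 3.14 FPKM (fragments per kilobase of gene, scaled to the fragments of the library) in colonoids labelled KO and at 6.85 to 7.90 in controls with vehicle. With hemin it stood at 1271 to 1393 FPKM in those labelled KO and at 382 to 503 in controls. The level under hemin was thus not lower in colonoids labelled KO. FPKM of whole genes cannot show whether a deleted exon is missing, so these levels do not decide whether the deletion is present. The genotype is given as labelled. The summed FPKM of 6 epithelial markers was 5541 to 9598 over all libraries, while 4 immune markers summed to at most 0.27 and 3 fibroblast markers to at most 0.071. Replicates of a group differed by more than counting error in all 12 pairs.

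Hemin moved most of the 10 genes in both genotypes, in both directions, as it moved many of all genes tested. In control colonoids 1 of the 10 was higher with hemin and 6 were lower, at an adjusted p under 0.05 in limma (Benjamini-Hochberg over the 12740 genes), where 23.2% and 26.7% of all genes were called higher and lower. In colonoids labelled KO 3 of the 10 were higher and 5 lower, against 29.9% and 30.4% of all genes, so the 3 higher are about the share of all genes. The median log2 fold change of the 10 was -0.42 in controls and -0.14 in those labelled KO, while that of all genes tested was -0.013 and -0.002. Under TPM, in which each library sums to the same total, 0 were higher and 6 lower in controls, against 6.7% and 24.7% of all genes, and 1 was higher and 5 lower in those labelled KO, against 9.35% and 37% of all genes. The plot of FPKM by library shows the 10 genes side by side.

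**Figure D1:**
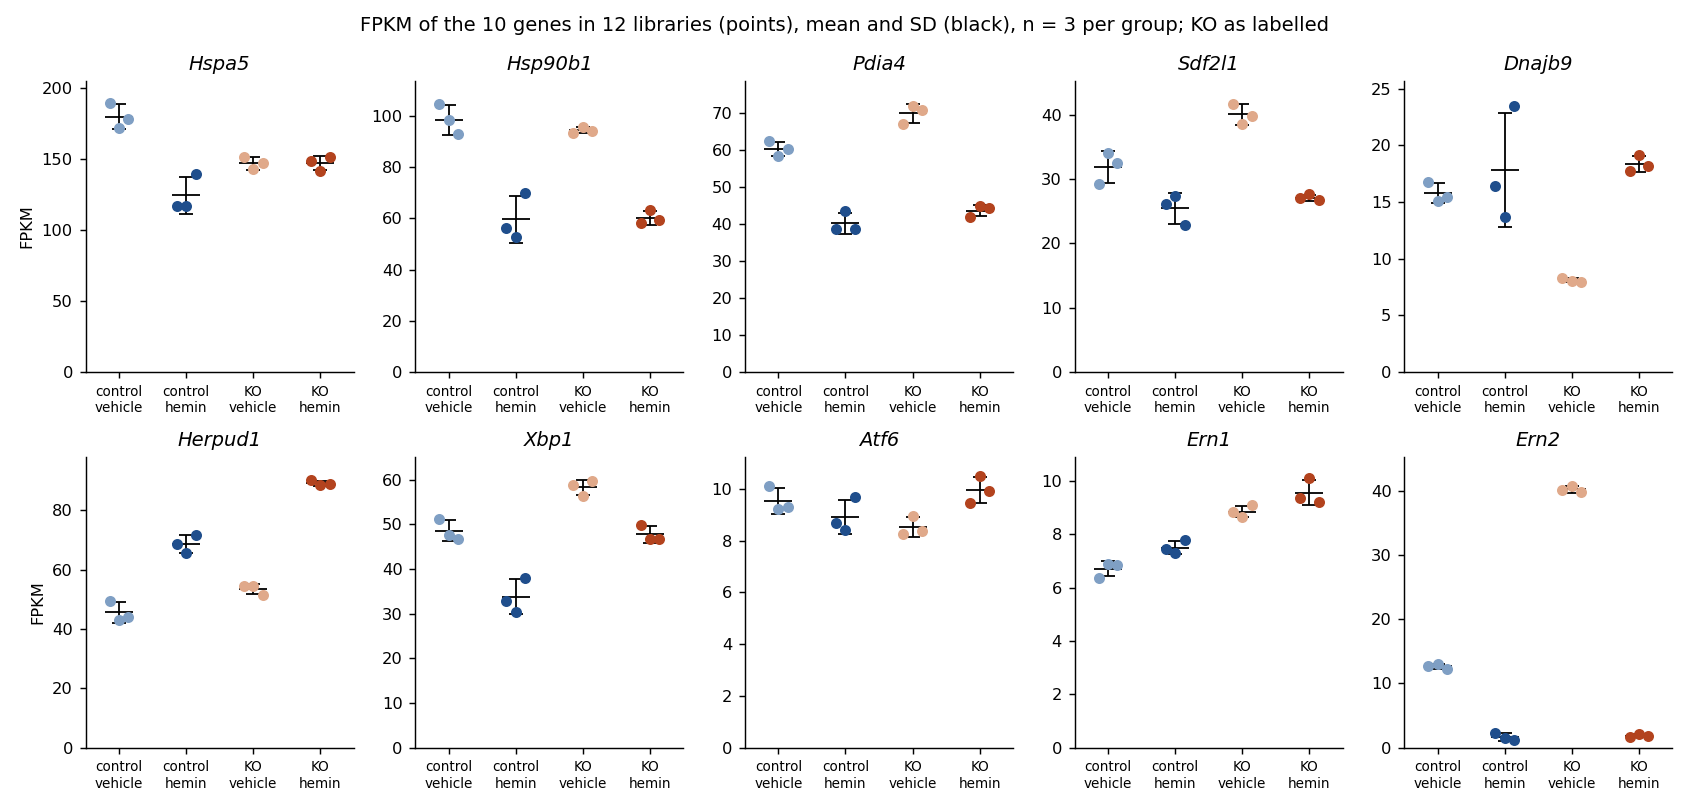
FPKM (vertical axis, from 0, a separate scale for each gene) of the 10 genes in the 4 groups on the horizontal axis. Points are libraries, and the black marks are the mean and SD of 3 libraries. *Ern2* is at 2.37 FPKM or less in both hemin groups, *Herpud1* is higher in both, and *Dnajb9* is lowest in vehicle-treated colonoids labelled KO.

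The sensor with the widest range was *Ern2* (ENSMUSG00000030866, chr7:122169893-122186207, minus strand), which encodes IRE1β. Coordinates are those of the deposited table (mm10). Its FPKM was 12.7, 13.1 and 12.3 in the 3 vehicle-treated control libraries and 2.37, 1.54 and 1.21 in the hemin-treated ones. In colonoids labelled KO it was 40.2, 40.7 and 39.7 with vehicle and 1.73, 2.11 and 1.83 with hemin. The groups did not overlap except the 2 hemin groups, which did. Mean FPKM was thus 7.44-fold lower with hemin in controls and 21.25-fold lower in those labelled KO. On the log2(FPKM + 1) scale, which understates changes of low values, *Ern2* changed by -2.36 (SE 0.12, adjusted p = 1.3e-07) and by -3.83 (SE 0.12, adjusted p = 1.7e-09). The difference between these responses was -1.47 (SE 0.18, adjusted p = 0.00015). With vehicle *Ern2* was 3.17-fold higher in colonoids labelled KO than in controls (log2 1.59, adjusted p = 2.2e-06), and with hemin the genotypes differed by 0.12 (SE 0.12, adjusted p = 0.51). Without hemin-treated control replicate 1, the highest of its group, this last difference was 0.28 and was called (adjusted p = 0.021).

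*Ern1* (ENSMUSG00000020715, chr11:106394650-106487852, minus strand), which encodes IRE1α and is expressed in most tissues, had a narrower range. Its FPKM was 6.38 to 6.89 in vehicle-treated and 7.28 to 7.77 in hemin-treated controls, and 8.65 to 9.08 with vehicle and 9.23 to 10.1 with hemin in colonoids labelled KO. The 4 groups did not overlap and stood in that order. The genotype difference was called with vehicle (log2 0.36, SE 0.06, adjusted p = 0.00051) and with hemin (0.31, SE 0.06, adjusted p = 0.0013). The hemin differences were 0.14 in controls (adjusted p = 0.055) and 0.10 in those labelled KO (adjusted p = 0.15), and neither passed. Both genes are given per length, so their levels may be set against each other. *Ern2* stood at 1.79 to 1.99 times the FPKM of *Ern1* in vehicle-treated controls and at 4.37 to 4.71 times in vehicle-treated colonoids labelled KO, but at 0.156 to 0.317 times in the 6 hemin-treated libraries. The IRE1β transcript was the more abundant of the pair in the 6 vehicle libraries and the less abundant in the 6 hemin libraries.

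With hemin *Ern2* fell together with most markers of goblet cells, the mucus-secreting cells in which it is mainly found. The 9 goblet markers summed to 1721 to 1963 FPKM in vehicle-treated and 1056 to 1416 in hemin-treated controls, and to 2426 to 2552 with vehicle and 597 to 659 with hemin in colonoids labelled KO. Of these 9, 7 fell with hemin in controls and 8 in colonoids labelled KO, against 26.7% and 30.4% of all genes called lower. None was at 0 in all libraries of a group. In controls *Muc2*, the main secreted mucin, averaged 104 ± 16.7 FPKM (SD, n = 3) with vehicle and 58.5 ± 2.04 under hemin, and in those labelled KO these means were 72.5 ± 0.568 and 6.41 ± 0.754. *Spdef*, a transcription factor of goblet cell maturation, averaged 18.5 ± 1.33 and 2.27 ± 1.31 in controls, and 23.9 ± 0.733 and 0.205 ± 0.0207 in those labelled KO. *Zg16*, which encodes a goblet cell lectin, was not called under hemin in either genotype, with log2 differences of -0.06 (adjusted p = 0.64) and 0.12 (adjusted p = 0.35). With vehicle *Ern2* was higher in colonoids labelled KO while the markers were split, with 4 higher and 3 lower, against 17.4% and 16.8% of all genes. In the FPKM the 3 lower included *Muc2* (log2 -0.50, adjusted p = 0.0046) and *Fcgbp* (-0.69, adjusted p = 0.0014), calls that were lost under TPM at adjusted p of 0.32 and 0.10. Among the 4 higher were *Spink4* (2.10, adjusted p = 1.1e-07) and *Agr2*, a goblet cell disulfide isomerase of the ER (1.14, adjusted p = 1.3e-05). With hemin 6 of the 9 were lower and 1 higher in colonoids labelled KO than in controls, against 14.7% and 19.7% of all genes. *Muc2* had the lowest log2 difference, of -3.01 (adjusted p = 5.0e-09), and the 1 called higher was *Spink4*, at 3.40. *Ern2* was at the 0.12 given above, or at 0.28 without the 1 control library named there. Markers of the other cell types moved in both directions with hemin. Beside their counts, 23.2% and 26.7% of all genes were called higher and lower in controls, and 29.9% and 30.4% in colonoids labelled KO. Of the 3 crypt base markers tested, 3 were lower in both genotypes (medians -0.94 and -1.40), though the *Ascl2* call in controls was lost without vehicle replicate 1 or hemin replicate 3 of that genotype. Of 4 enteroendocrine markers 3 were lower in colonoids labelled KO, while in controls 1 of 4 was, *Neurod1*, which is about the 26.7% of all genes called lower there. Of 5 colonocyte markers 2 were higher and 2 lower in controls, and 1 was higher and 3 lower in those labelled KO. Of 6 epithelial markers 3 were higher and 0 lower in controls, and 5 were higher and 1 lower in those labelled KO. In bulk RNA, fewer goblet cells and less of these transcripts per cell cannot be told apart, and the part of goblet cell content in the *Ern2* values was not tested.

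**Figure D2:**
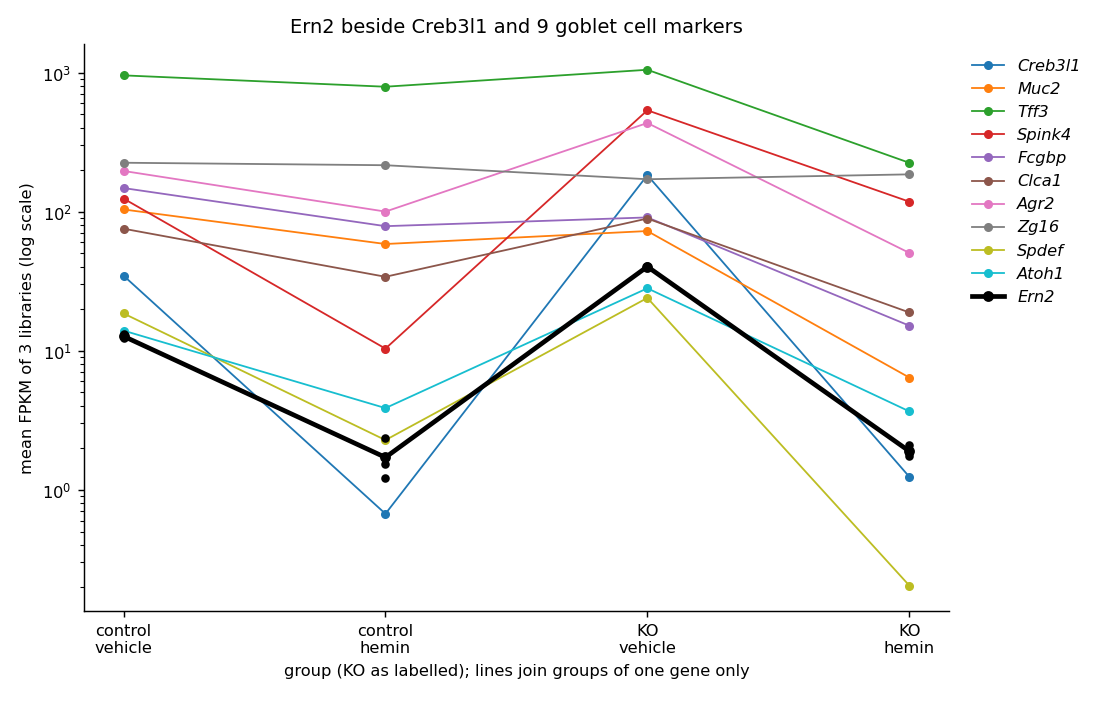
Mean FPKM of 3 libraries on a log axis for *Ern2* (black, with its 3 libraries as small points), *Creb3l1* and 9 goblet cell markers across the 4 groups, as labelled. Lines join the values of 1 gene. *Ern2*, *Creb3l1*, *Spdef* and *Atoh1* drop in both hemin groups, *Zg16* stays between 171 and 225 FPKM, and *Ern2* and *Creb3l1* are highest with vehicle in colonoids labelled KO.

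The gene of ATF6, the sensor that is cleaved in the Golgi, had the narrowest range of group means among the 10. *Atf6* (ENSMUSG00000026663, chr1:170704674-170867771, minus strand) stood at 9.21 to 10.1 FPKM in vehicle-treated and 8.43 to 9.67 in hemin-treated controls, and at 8.26 to 8.95 with vehicle and 9.45 to 10.5 with hemin in colonoids labelled KO. All neighbouring groups in the order of means overlapped, but in colonoids labelled KO the vehicle and hemin libraries, which are not neighbours in that order, did not. Hemin raised it in colonoids labelled KO by 0.20 on the log2 scale (SE 0.07, adjusted p = 0.024), a direction that turned under TPM, where it was -0.11, and under TPM without the noncoding transcript *Gm23935*, where it was -0.003. Measured from the median of all genes, the same difference was 0.20 in all 3 scalings. The call was also lost in 4 of the 12 fits that left out 1 library, without vehicle replicate 1 or 3 or hemin replicate 2 or 3 of the colonoids labelled KO, with adjusted p of 0.057 to 0.085. In controls the difference was -0.09 (adjusted p = 0.31), and it was called as -0.20 under TPM without *Gm23935* (adjusted p = 0.041), where the median gene stood at -0.12.

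*Xbp1* (ENSMUSG00000020484, chr11:5520659-5525893, plus strand), the transcription factor whose mRNA IRE1 splices, fell with hemin in both genotypes. Its FPKM was 51.3, 47.7 and 46.8 with vehicle and 32.8, 30.5 and 38.1 with hemin in controls, and 58.8, 56.4 and 59.6 with vehicle and 49.9, 46.7 and 46.7 with hemin in colonoids labelled KO. Vehicle and hemin libraries did not overlap within either genotype. The log2 fold changes were -0.52 (SE 0.08, adjusted p = 0.00026) and -0.28 (SE 0.08, adjusted p = 0.0089), and their difference of 0.23 was not called (adjusted p = 0.16). *Xbp1* was higher in colonoids labelled KO with hemin by 0.49 (adjusted p = 0.00055) and with vehicle by 0.26 (adjusted p = 0.025). The vehicle call was lost without control replicate 2 or 3 or labelled KO replicate 1 or 3, at adjusted p of 0.072 to 0.087.

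Among the chaperones, *Hspa5* (ENSMUSG00000026864, chr2:34771970-34777547, plus strand) fell with hemin in controls, and its response there differed from that in colonoids labelled KO. It encodes BiP, the main Hsp70 of the ER, and was the most abundant of the 10 genes per length in every library. Its FPKM in controls was 189.6, 172 and 178 with vehicle and 117, 117 and 139.7 with hemin. In colonoids labelled KO it was 152, 143 and 147 with vehicle and 149, 142 and 151 with hemin, so these groups overlapped while those of the controls did not. The log2 fold change was -0.53 in controls (SE 0.08, adjusted p = 0.00017) and 0.0004 in those labelled KO (SE 0.08, adjusted p = 0.997), and the responses differed by 0.53 (SE 0.11, adjusted p = 0.0044). Under TPM this difference was 0.39 and was no longer called (adjusted p = 0.49). Under TPM without *Gm23935* the value in colonoids labelled KO was -0.23 (adjusted p = 0.025), where the median gene stood at -0.21. With vehicle *Hspa5* was lower in colonoids labelled KO (-0.29, adjusted p = 0.012), and with hemin it was higher (0.24, adjusted p = 0.028). The first call was lost without labelled KO replicate 2 (adjusted p = 0.051). The second was lost without control replicate 1 or 2 or labelled KO replicate 1 or 3 (adjusted p of 0.077 to 0.096), and with only the hemin groups in the fit (adjusted p = 0.13).

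*Hsp90b1*, *Pdia4* and *Sdf2l1*, which encode the ER form of Hsp90, a disulfide isomerase and a partner of BiP-binding J proteins, fell with hemin in both genotypes. *Hsp90b1* (ENSMUSG00000020048, chr10:86690209-86705509, minus strand) stood at 105, 98.3 and 92.8 FPKM with vehicle and 56.1, 52.7 and 69.9 with hemin in controls, and at 93.3, 95.6 and 94.3 with vehicle and 58.1, 63.2 and 59.4 with hemin in colonoids labelled KO. It changed by -0.72 (SE 0.09, adjusted p = 8.5e-05) and by -0.64 (SE 0.09, adjusted p = 0.00014), with vehicle and hemin libraries apart in both. Its promoter holds ERSE, as does that of *Hspa5*, for which no change was called in the colonoids labelled KO. *Pdia4* (ENSMUSG00000025823, chr6:47796141-47813430, minus strand) stood at 58.5 to 62.4 FPKM with vehicle and 38.6 to 43.4 with hemin in controls, and at 67.0 to 71.8 and 41.9 to 44.8 in those labelled KO. Its log2 fold changes were -0.58 (SE 0.06, adjusted p = 2.2e-05) and -0.67 (SE 0.06, adjusted p = 4.4e-06). *Sdf2l1* (ENSMUSG00000022769, chr16:17130138-17132383, minus strand) stood at 29.2 to 34.1 FPKM with vehicle and 22.8 to 27.3 with hemin in controls, and at 38.6 to 41.7 and 26.7 to 27.6 in those labelled KO. It changed by -0.32 (SE 0.08, adjusted p = 0.0056) and by -0.55 (SE 0.08, adjusted p = 0.00011). For none of the 3 was a difference between the genotypes' responses called, with values of 0.08, -0.09 and -0.23 and adjusted p of 0.71, 0.52 and 0.16.

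*Dnajb9* (ENSMUSG00000014905, chr12:44205559-44210326, minus strand), which encodes the BiP co-chaperone ERdj4 and is a classical target of XBP1, was the only one of the 5 chaperone genes called higher with hemin. In colonoids labelled KO it stood at 8.30, 8.06 and 7.97 FPKM with vehicle and at 17.7, 19.2 and 18.2 with hemin, a 2.26-fold rise of the mean (log2 1.09, SE 0.14, adjusted p = 6.8e-05). In controls it stood at 16.8, 15.1 and 15.5 with vehicle and at 16.4, 13.6 and 23.4 with hemin, and the groups overlapped (log2 0.13, SE 0.14, adjusted p = 0.47). The responses differed by 0.95 (SE 0.20, adjusted p = 0.0063), or by 0.86 under TPM, where the call was lost (adjusted p = 0.10). The low level in vehicle-treated colonoids labelled KO set these apart from the controls, by -0.88 (adjusted p = 0.00066), and with hemin the genotypes differed by 0.07 (adjusted p = 0.74). Hemin-treated control replicate 3 held the highest *Dnajb9* value of all libraries. Without it the control response was -0.07, and the genotype difference under hemin became 0.28 (adjusted p = 0.014).

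*Herpud1* (ENSMUSG00000031770, chr8:94386438-94395377, plus strand), which encodes an ER membrane protein of ER-associated degradation, rose with hemin in both genotypes. It stood at 49.5, 43.1 and 44.1 FPKM with vehicle and at 68.8, 65.7 and 71.7 with hemin in controls, and at 54.5, 54.6 and 51.4 with vehicle and at 90.1, 88.6 and 88.7 with hemin in colonoids labelled KO. No 2 of the 4 groups overlapped. The rises were 1.51-fold (log2 0.58, SE 0.06, adjusted p = 2.2e-05) and 1.67-fold (log2 0.73, SE 0.06, adjusted p = 2.4e-06), and their difference of 0.14 was not called (adjusted p = 0.29). Under TPM, where the median gene stood at -0.19 and -0.31, the rises were 0.40 in both genotypes and neither was called, at adjusted p of 0.085 and 0.067. With *Gm23935* left out of the TPM sum they were 0.48 and 0.51 and both were called, where the median gene stood at -0.12 and -0.21. *Herpud1* was higher in colonoids labelled KO with hemin (0.37, adjusted p = 0.00088) and with vehicle (0.23, adjusted p = 0.016). The vehicle call was lost without control replicate 2 or 3 or labelled KO replicate 1 or 2, at adjusted p of 0.059 to 0.072.

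**Figure D3:**
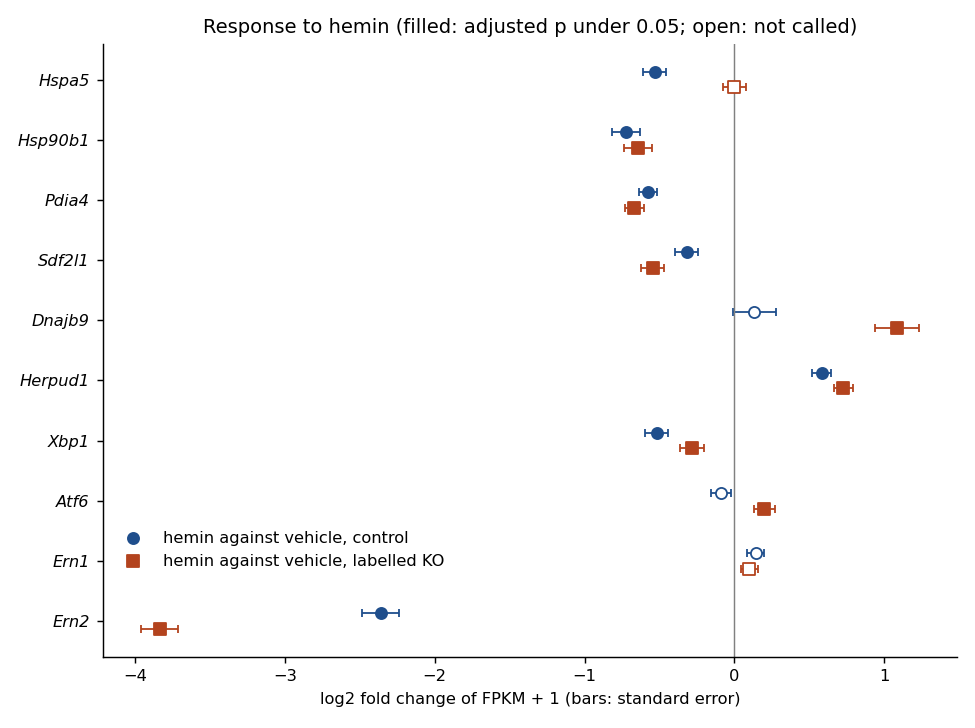
Log2 fold change of FPKM + 1 with hemin (horizontal axis, bars are standard errors) for the 10 genes in control colonoids (circles) and those labelled KO (squares), with filled marks for an adjusted p under 0.05. *Ern2*, *Hspa5* and *Dnajb9* stand apart between the genotypes, with values of -2.36 and -3.83, of -0.53 and 0.0004 and of 0.13 and 1.09. *Hsp90b1*, *Pdia4* and *Herpud1* lie close together.

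The genotypes also differed in the vehicle-treated colonoids, to an extent that depended on the scaling. With vehicle 6 of the 10 were higher and 2 lower in colonoids labelled KO, where 17.4% and 16.8% of all genes were called higher and lower. The 6 were *Ern2*, *Ern1*, *Xbp1*, *Pdia4*, *Sdf2l1* and *Herpud1*, and the 2 were *Hspa5* and *Dnajb9*. *Sdf2l1* was higher by 0.32 (adjusted p = 0.0074) and *Pdia4* by 0.21 (adjusted p = 0.023). The *Pdia4* call was lost without control replicate 2 or 3 or labelled KO replicate 2 or 3, at adjusted p of 0.064 to 0.086. The count fell to 5 without control replicate 2, without control replicate 3 and without labelled KO replicate 2. Under TPM it was 3, with *Ern2* and *Ern1* higher and *Dnajb9* lower, where 11.6% and 6.26% of all genes were called higher and lower. The calls of *Xbp1*, *Pdia4*, *Sdf2l1*, *Herpud1* and *Hspa5* were lost there, at adjusted p of 0.091 to 0.66. With *Gm23935* left out of the TPM sum the same 6 were called higher and the same 2 lower, against 21% and 14.1% of all genes.

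With hemin 4 of the 10 were higher in colonoids labelled KO and 0 lower, where 19.7% and 14.7% of all genes were called. They were *Ern1*, *Xbp1*, *Hspa5* and *Herpud1*. No member was lower at an unadjusted p under 0.05 either, and the other 6 differences lay between 0.03 and 0.14. Of these 6, 4 were called higher when 1 hemin-treated control library was left out. They were *Atf6* (0.20, adjusted p = 0.025) and *Dnajb9* (0.28, adjusted p = 0.014) without replicate 3, *Ern2* (0.28, adjusted p = 0.021) without replicate 1 and *Pdia4* (0.17, adjusted p = 0.039) without replicate 2. In the fits without replicates 3, 1 and 2, 24.7%, 17.6% and 21.3% of all genes were called higher. limma-voom on the recovered fragments also called 4 higher and 0 lower, whereas under TPM 0 of the 10 were called, with 2 higher at an unadjusted p under 0.05 and with 9.03% and 7.52% of all genes called higher and lower. TPM without *Gm23935* called 3 higher and 0 lower, against 16.5% and 17.2% of all genes. An interaction between genotype and hemin passed the test in 3 of the 10, with *Hspa5* and *Dnajb9* higher and *Ern2* lower, where 13.3% and 10.5% of all genes were called higher and lower. Under TPM it passed in *Ern2* alone, where 2.45% and 4.69% of all genes were called. Hemin-treated control replicate 3 stood apart in several of these genes, with the highest *Dnajb9*, *Hsp90b1*, *Hspa5* and *Xbp1* of its group. Without it the interaction passed in 6 of the 10, with *Atf6* (0.34, adjusted p = 0.0088), *Xbp1* (0.32, adjusted p = 0.0085) and *Sdf2l1* (-0.30, adjusted p = 0.020) added. In that fit the share of all genes called rose too, to 20.8% higher and 16.2% lower, so the larger count is no result about these genes. Each group enters 2 of the 4 comparisons between groups, so these counts share libraries.

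The other genes of the pathway were described as 5 lists of 66 genes, of which 65 were tested. Their counts with hemin in the FPKM stand against 23.2% and 26.7% of all genes called higher and lower in controls and 29.9% and 30.4% in colonoids labelled KO, and those with vehicle against 17.4% and 16.8%. Genes of ER-associated degradation, to which *Herpud1* belongs, were mostly higher with hemin. Of 12 tested, 7 were higher and 1 lower in controls and 11 were higher and 0 lower in colonoids labelled KO, with medians of 0.23 and 0.55. limma-voom and an unadjusted p under 0.05 also gave 11 and 0. *Edem1*, which sorts misfolded glycoproteins, fell in controls (-0.27, adjusted p = 0.0060) and rose in those labelled KO (0.36, adjusted p = 0.00072), and these responses differed by 0.62 (adjusted p = 0.00069). All 3 of these calls were lost under TPM, at adjusted p of 0.063, 0.91 and 0.31, and no interaction of the 12 was called there, nor at an unadjusted p under 0.05. Under TPM 2 and 3 of the 12 were higher with hemin, against 6.7% and 9.35% of all genes, and the list's median stood 0.23 and 0.56 above that of all genes. With *Gm23935* left out of the TPM sum 5 and 7 were higher with hemin, against 17.7% and 19.3% of all genes. There 4 interactions of the 12 were called higher and 0 lower, against 9.13% and 14.4% of all genes. With vehicle 1 was higher and 4 lower in colonoids labelled KO. Under TPM 0 of the 12 were called in this comparison, and at an unadjusted p under 0.05 there 1 was higher and 0 lower.

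ER chaperones and folding enzymes outside the 10 moved in both directions. Of 18 tested, 4 were higher and 9 lower with hemin in controls, and 7 were higher and 8 lower in colonoids labelled KO, with medians of -0.22 and -0.19. The oxidoreductase *Txndc5* was the lowest in both (-1.09, adjusted p = 1.5e-06, and -1.65, adjusted p = 4.0e-08). The highest were the BiP nucleotide exchange factor *Sil1* in controls (0.37, adjusted p = 0.00035) and the disulfide isomerase *P4hb* in those labelled KO (0.73, adjusted p = 3.0e-07). *Dnajc3*, which encodes a BiP co-chaperone that also restrains PERK, rose in those labelled KO (0.56, adjusted p = 0.00032) and stood at -0.06 in controls (adjusted p = 0.61), and these responses differed by 0.62 (adjusted p = 0.0055). Under TPM the rise and the interaction of *Dnajc3* were lost, at adjusted p of 0.33 and 0.35, and no interaction of the 18 was called. With *Gm23935* left out of the TPM sum 2 interactions were called higher and 4 lower, against 9.13% and 14.4% of all genes. Without hemin-treated control replicate 3 its value in controls was -0.17 and was called (adjusted p = 0.034). ERSE stood in the promoters of 6 of the 14 genes of this list that were matched in the promoter set used. It stood in 2 of the 11 matched of ER-associated degradation (*Syvn1* and *Derl3*). In the translocation, membrane-bound regulator and PERK arm lists it stood in 0 of the 13, 8 and 8 matched. Under TPM 0 of the 18 were called higher with hemin in either genotype, 0 and 1 at an unadjusted p under 0.05, while 8 and 10 were lower, against 6.7% and 9.35% of all genes called higher and 24.7% and 37% called lower. The calls of *Sil1* and *P4hb* given above were among those lost.

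Proteins of ER translocation and the vesicle coat bring other proteins into and out of the ER. Of 17 of their genes tested, 2 were higher and 9 lower with hemin in controls, with a median of -0.17. In colonoids labelled KO 1 was higher and 6 lower, with a median of -0.005, where 29.9% and 30.4% of all genes were called higher and lower and their median was -0.002. Under TPM 0 were higher and 8 lower in either genotype, against the shares under TPM given for the chaperones. The signal peptidase subunit *Spcs1* had the highest value in both (0.46 and 0.35), but its calls were lost under TPM (adjusted p = 0.29 and 0.94) and without 1 of several libraries. The lowest were the coat protein *Sec24d* in controls (-0.58, adjusted p = 3.9e-06) and the signal peptidase subunit *Sec11c* in those labelled KO (-0.49, adjusted p = 0.00035).

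The list of other membrane-bound regulators held the widest changes. *Creb3l1*, a transcription factor released from the ER membrane by cleavage like ATF6, averaged 34.6 ± 1.39 FPKM (SD, n = 3) in vehicle-treated controls and 0.67 ± 0.43 in hemin-treated ones, against 183 ± 7.39 and 1.24 ± 0.21 for the colonoids labelled KO. It changed by -4.45 (adjusted p = 8.0e-09) and by -6.36 (adjusted p = 2.2e-10), and with vehicle it was higher in those labelled KO by 2.37 (adjusted p = 6.5e-07). *Tmbim6*, a regulator of ER calcium and of IRE1, was the highest of the list with hemin (0.67, adjusted p = 9.7e-06, and 1.00, adjusted p = 2.5e-07). Of the 10 tested, 4 were higher and 4 lower in controls, and 3 were higher and 5 lower in colonoids labelled KO, where the 3 higher are about the 29.9% of all genes. Under TPM these counts were 0 and 3 in controls, with 1 higher at an unadjusted p under 0.05, and 1 and 5 in those labelled KO, against 6.7% and 24.7% of all genes called higher and lower in controls and 9.35% and 37% in those labelled KO. The *Tmbim6* call in controls was among those lost (adjusted p = 0.077).

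In the PERK arm *Trib3* and *Atf3* fell with hemin in controls and rose in colonoids labelled KO, as did *Ppp1r15a*, whose rise was lost under TPM (adjusted p = 0.29). Of the 8 genes of this arm, 2 were higher and 5 lower with hemin in controls, and 6 were higher and 1 lower in colonoids labelled KO, with medians of -0.43 and 0.87. Without hemin-treated control replicate 3 the control counts were 3 higher and 4 lower, with a median of -0.32, where 27.1% and 29.5% of all genes were called. Under TPM 1 was higher and 5 lower in controls, against 6.7% and 24.7% of all genes, and 4 were higher and 1 lower in those labelled KO, against 9.35% and 37%. The interaction passed in 5 of the 8, against 13.3% of all genes called higher, or in 4 under TPM, against 2.45%. These were all higher in those labelled KO, and the widest was the pseudokinase *Trib3* (3.25, adjusted p = 2.0e-06). No interaction was called for *Eif2ak3*, *Atf4* and *Nupr1* (0.22, 0.59 and 0.48, with adjusted p of 0.17, 0.10 and 0.069). *Trib3* fell in controls (-1.31, adjusted p = 2.9e-05) and rose in those labelled KO (1.94, adjusted p = 8.6e-07). *Chac1*, which encodes a glutathione-degrading enzyme, rose furthest of the 8 in both genotypes (1.14, adjusted p = 0.00054, and 3.45, adjusted p = 9.4e-08), and these responses differed by 2.31 (adjusted p = 0.00014). *Eif2ak3*, the gene of PERK, fell in both (-0.51, adjusted p = 0.00023, and -0.29, adjusted p = 0.0063). *Ddit3*, which encodes CHOP, rose in both (0.51, adjusted p = 0.00066, and 1.16, adjusted p = 9.3e-07), though the call in controls was lost under TPM (adjusted p = 0.14). *Atf4* rose in those labelled KO (0.56, adjusted p = 0.014) but in controls the value was -0.03 (adjusted p = 0.90), with FPKM of 156, 145 and 88.0 in hemin replicates 1 to 3. Without replicate 3 the control value was 0.23 and was called (adjusted p = 0.0098), and under TPM the rise in those labelled KO was lost (adjusted p = 0.38). With vehicle 7 of the 8 were lower in colonoids labelled KO and 0 higher, also at an unadjusted p under 0.05 and in limma-voom, and under TPM 5 were lower and 0 higher, against 6.26% of all genes called lower. The median was -1.27, and *Dnajb9* among the 10 was lower there too. In the same libraries the summed FPKM of 4 enteroendocrine markers was 129 to 134 with vehicle in colonoids labelled KO against 22.6 to 28.5 in controls, and that of 4 crypt base markers 15.2 to 16.3 against 5.33 to 7.85, and their part in these values was not tested.

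**Figure D4:**
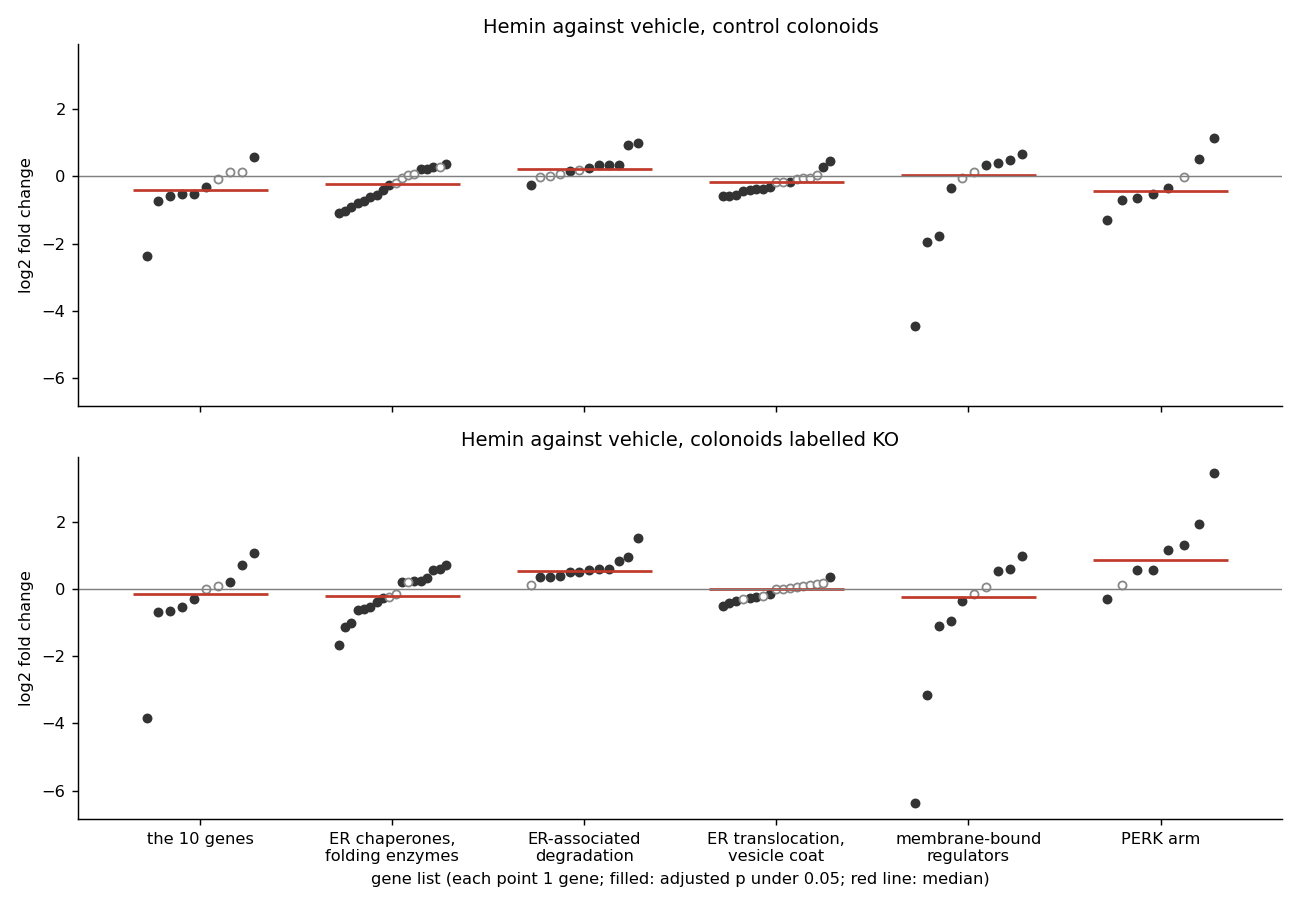
Log2 fold change with hemin (vertical axis) in control colonoids (upper panel) and those labelled KO (lower panel) for the 10 genes and 5 other pathway lists. Each point is 1 gene, filled for an adjusted p under 0.05, and red lines are medians. The median of the PERK arm is -0.43 in the upper panel and 0.87 in the lower, and that of ER-associated degradation is above 0 in both.

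The genes whose pattern over the 12 libraries was most like that of 2 of the members were found by Pearson's r of log2(FPKM + 1) among all genes tested. The 12 libraries form 4 groups, so r mostly reflects the 4 group means and is given with no p. For *Ern2* the 5 nearest were *C2cd4a* (r = 0.997), *Creb3l1* (0.996), *Pck1* (0.995), *Hpd* (0.995) and *Plch2* (0.994). For *Hspa5* they were *Phka2* (0.970), *Hmgcs1* (0.961), *Insig1* (0.958), *Hyal1* (0.954) and *Gsta4* (0.946). *Hmgcs1*, an enzyme of cholesterol synthesis, averaged 149 FPKM in vehicle-treated and 88.3 in hemin-treated controls, against 108 and 101 in the corresponding groups labelled KO.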

How the data were processed

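Poly-A RNA of colonoids was sequenced in 12 libraries by Novogene, and groups and replicate numbers were taken from the titles in the labels. Per the submitters' processing notes the tools were fastp, HISAT2 2.0.5 and featureCounts 1.5.0-p3 with mm10, in roles not given in the sources used here. The authors deposited FPKM for 54532 genes with coordinates and lengths. FPKM times length were whole multiples (tolerance 0.01) of the value of 1 fragment, from which the 11648801 to 25101868 fragments per library were recovered. Whether the libraries were directional is not given, so reads of overlapping genes may be shared.

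The filter kept genes that reached an FPKM of 1 in 3 or more libraries. limma 3.58.1 (R 4.3.3, tested on simulated data) used log2(FPKM + 1), group means without a block, an intensity trend and Benjamini-Hochberg adjustment over all genes tested, with calls at an adjusted p under 0.05. Python 3.11.15, pandas 2.3.3 and matplotlib 3.10.9 made the counts and plots. The 10 genes and the other lists were chosen with earlier results of these data known, so no list was tested as a set. Genes named beyond the 10 were taken from the highest and lowest called genes of a list in any of the comparisons, *Eif2ak3*, *Atf4*, *Ddit3*, *Hmox1*, marker genes, and the 5 genes most correlated with *Ern2* and *Hspa5*. *Atf3*, named for its responses to hemin, and *Derl3*, named for its promoter, fall outside this rule. *Gm23935* was named after its values were seen. 1 gene that the rule names is not reported here.

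Tried as alternatives were other pseudocounts (0.1), filters (none, or a mean of 5 FPKM) and scalings (TPM, with or without *Gm23935* in the sum), the replicate number as a block, fits to the groups compared alone, limma-voom on the recovered fragments, a further threshold on absolute log2 fold change (above 1), and each library left out in turn. Counts and single genes of the other lists under other scalings and with 1 library left out were added after seeing the data.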

Additional observations from a re-analysis of the deposited data

Results flagged for a closer look

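In 3 of the 10 genes the response to hemin differed between the genotypes by the test of the difference itself (limma, adjusted p under 0.05). In the same fit 13.3% of all genes were called higher and 10.5% lower, so the count alone is no result about these genes. For *Ern2* the log2 response in colonoids labelled KO minus that in controls was -1.47, and it was between -1.61 and -1.31 with any 1 library left out. For *Hspa5* it was 0.53, and between 0.49 and 0.62 with any 1 library left out. For *Dnajb9* it was 0.95, and between 0.79 and 1.16 with any 1 library left out. Under TPM the values of *Hspa5* and *Dnajb9*, 0.39 and 0.86, no longer passed (adjusted p = 0.49 and 0.10), and with *Gm23935* left out of the TPM sum 3 interactions were called, against 9.13% of all genes called higher and 14.4% called lower.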

How the results depend on the processing

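TPM moved the median log2 fold change of all genes by -0.18, -0.31, 0.14, 0.008 and -0.13 in the 5 comparisons, taken in the order hemin in controls, hemin in those labelled KO, genotype with vehicle, genotype with hemin and interaction. *Gm23935* held 16.8%, 29.0% and 21.0% of the FPKM sum in 3 libraries and at most 2.8% in the others. Without it in the sum the median moved by -0.11, -0.21, 0.06, -0.04 and -0.10. The share of higher genes among all called was 46.4%, 49.6%, 50.9%, 57.2% and 55.9% in the FPKM, 21.4%, 20.2%, 64.9%, 54.6% and 34.3% under TPM, and 35.2%, 32.1%, 59.8%, 49.1% and 38.7% under TPM without *Gm23935*. Under TPM 3 of the 10 genes were called between genotypes with vehicle, 0 with hemin and 1 in the interaction. *Atf6* with hemin in those labelled KO turned to -0.11 and -0.003, and *Hspa5* there to -0.23, by the scalings named beside them above. With an absolute log2 fold change above 1 as well, 1, 2, 1, 0 and 1 of the 10 were called, against 2.17%, 4.87%, 3.53%, 3.1% and 2.57% of all genes called higher and 5.93%, 8.07%, 3.27%, 2.91% and 2.56% called lower. Leaving out 1 library gave 7, 7 to 8, 5 to 8, 3 to 6 and 3 to 6 calls. Among values called in neither fit, 21 changed sign under some alternative, 10 of them under others than the TPM scalings. *Sdf2l1* in controls stood at an adjusted p of 0.050 with only those 2 groups in the fit. A pseudocount of 0.1, a mean FPKM of at least 5 and limma-voom left the counts of calls within 1.5 times of those reported.

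Same-numbered libraries did not deviate together, with a mean correlation of deviations of -0.04 over 18 pairs (-0.33 to 0.18), against 0.02 for other pairs. The replicate block gave 7, 8, 8, 4 and 3 calls among the 10 and changed no call. The 8 residual degrees of freedom limit the precision, as does the depth of 42 fragments for *Ern2* in its lowest library.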
